A study of Mus musculus with 6 samples.

Results

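Growth hormone, prolactin and the insulin-like growth factor (IGF) genes were followed in microglia, the resident macrophages of the brain, by RNA sequencing of mice that lack the microRNA gene Mir137. The genes were the rows of the count table with the symbols Gh, Prl, Ghr, Igf1, Igf1r, Igf2, Igf2r, Igfbp2, Igfbp4 and Igfbp7, which are 10 of 24411 rows, and all 10 were found. The 6 libraries fall into 2 groups, Mir137 knockout (gKO, n = 3 libraries) and Mir137 wild type (gWT, n = 3 libraries), each of microglia from the brains of C57BL/6J mice at 8 weeks of age, and no treatment is named. The sources used here do not say how the knockout allele was made. The design text speaks of 4 mice without tying them to libraries, so the spread between libraries may be technical. The symbols belong to 1 pathway and were chosen with their counts in these gKO and gWT libraries known, so the members count as selected on the difference between the genotypes. Their differences between genotypes are therefore given as a description, and nothing is read from a test of them.

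Growth hormone, made by somatotroph cells of the anterior pituitary, acts through its receptor Ghr and the kinase Jak2 to raise IGF1 output in liver and other tissues. IGF1 and IGF2 signal through the tyrosine kinase receptor Igf1r, Igf2r takes up IGF2 for breakdown, and the IGF-binding proteins carry the ligands and control their access to receptors. In the brain, macrophages and microglia are a known source of IGF1, whereas Igf2 and several binding proteins are known from meninges, choroid plexus and vessels.

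The lost microRNA is shown first, with the sites in these genes that match it. The capitals mark bases 2 to 8, the seed with which the microRNA finds its targets. The mature strand lies at chr3:118433901-118433923 (RefSeq, GRCm38.p6, plus strand).
mmu-miR-137-3p: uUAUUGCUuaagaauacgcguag
The reverse complement of that seed, AGCAATA, was searched in the sense strand of the longest annotated 3′ UTR of each gene (GENCODE M21, GRCm38). It was present in 2 of the 10 members and in 10.4% of the 12587 tested genes that have an annotated 3′ UTR. Igf1 held 2 sites in a UTR of 6308 bases, at positions 551 and 6146 (chr10:87931285-87931291 and chr10:87936880-87936886, plus strand). Igfbp4 held 1 site at position 251 of 2813 (chr11:99051830-99051836, plus strand). Capitals mark the match.
Igf1, position 551: gcctccttaagAGCAATAgcaaataagta
Igf1, position 6146: atttatggcagAGCAATAtctgtcctaat
Igfbp4, position 251: ggtctgagtgtAGCAATAggaattcccag
Igf1 and Igfbp4, the members with a site, had the log2 fold changes of gKO over gWT of -0.17 and -0.12. The other 8 members held no AGCAATA in the UTR searched, which says nothing of other site types or other UTR ends.

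Library totals ran from 14603884 to 17652976 counts, with 13832 to 14090 genes detected in gKO libraries and 15012 to 15277 in gWT libraries. Mir137 itself had 0 counts in all 6 libraries, which checks nothing about the labels. The 10 microglial markers (P2ry12, Tmem119, Csf1r and others) summed to 39356 to 41758 CPM (counts per library size, scaled by TMM) in gKO and 38117 to 40976 CPM in gWT, so the labelled cell type is borne out by its markers in each library. In gKO replicate 3, longer genes had lower values relative to the other gKO libraries (Spearman rho = -0.47 across 12922 genes, which are not independent replicates). Some results, not all, are also given without that library.

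The hormone genes differed in kind from the rest. Gh (chromosome 11, 106300271 to 106301865, minus strand, ENSMUSG00000020713.6) had 40, 48 and 30 counts in gKO replicates 1, 2 and 3, against 0, 0 and 0 counts in the gWT replicates. All 3 gKO libraries thus held counts assigned to Gh and no gWT library did. Which part of Gh the reads cover was not examined. The level in gKO was 2.29, 3.29 and 2.12 CPM, a mean of 2.57 ± 0.633 CPM (SD, n = 3). Over the groups, 118 counts in gKO (95% exact Poisson interval 97.7 to 141, counting error only) stood against 0 in gWT, where a count of 0 allows up to 3 counts, or 0.0594 CPM. By library totals, the 118 gKO counts as they stand were 42.1-fold above the floor of 3 counts taken over the gWT group. That ratio leaves out the counting error of the gKO counts. In the authors' deposited table of genes higher in gKO, Gh has a log2 fold change of 7.91 (SE 1.43), a value that depends on how 0 counts are modelled.

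With 0 counts in each gWT library and at least 10 in each gKO library, Gh was the only row of the whole table. The next row with 0 counts in gWT reached 9 counts in its lowest gKO library. In the other direction, 19 rows had 0 counts in each gKO library and at least 10 in each gWT library, none with more than 27 counts in its lowest gWT library. The minimum of 10 counts was chosen after Gh's values were seen.

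Prl, the sister hormone of Gh made by pituitary lactotrophs (chromosome 13, 27057570 to 27065205, plus strand), had 0 counts in all 6 libraries. The limit that a count of 0 allows was 0.170 to 0.205 CPM in gKO libraries and 0.173 to 0.184 CPM in gWT libraries. All 29 rows whose symbol starts with Prl other than the receptor Prlr, Prl among them, held 0 counts; most are hormones of the placenta. Prl did not pass the filter on low counts, while Gh passed it through its gKO libraries alone.

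Markers of pituitary cells gave mixed values. Of 10 pituitary markers, 4 had 0 counts in all 6 libraries, among them Pou1f1 (the factor that drives Gh and Prl transcription), Fshb and Tshb. The summed level of the 10 was 1.03 to 7.99 CPM in gKO and 2.28 to 4.77 CPM in gWT. Pomc, the precursor of ACTH, had 0, 29 and 36 counts in gKO, against 13, 11 and 3 in gWT, so gKO replicate 1 held 40 counts of Gh with none of Pomc. Pitx1, a factor of early pituitary development, had 0, 6 and 14 counts across the gKO libraries and none in gWT. Dlk1, a surface protein of endocrine cells, was the only marker of the list whose groups did not overlap, with 14, 10 and 5 counts across gKO libraries and 38, 32 and 29 across gWT libraries, a log2 fold change of -1.63 (SE 0.72, edgeR adjusted p = 0.469). Chga, a secretory granule protein, had 0, 3 and 49 counts across gKO libraries and 23, 9 and 7 across gWT libraries. The part of pituitary RNA in the Gh counts was not tested.

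Genes beside Gh on chromosome 11 did not show its on and off pattern. They were looked up after its values were seen. Cd79b, a B cell receptor component whose gene lies 9476 bases away, had 740, 513 and 787 counts in the gKO libraries, against 621, 751 and 645 in the gWT libraries, and the groups overlapped. On the other side, Tcam1 had 0, 8 and 0 counts in the gKO libraries, against 11, 1 and 15 in the gWT libraries. Scn4a, a muscle sodium channel gene beyond Cd79b, had 0 counts throughout.

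**Figure D1:**
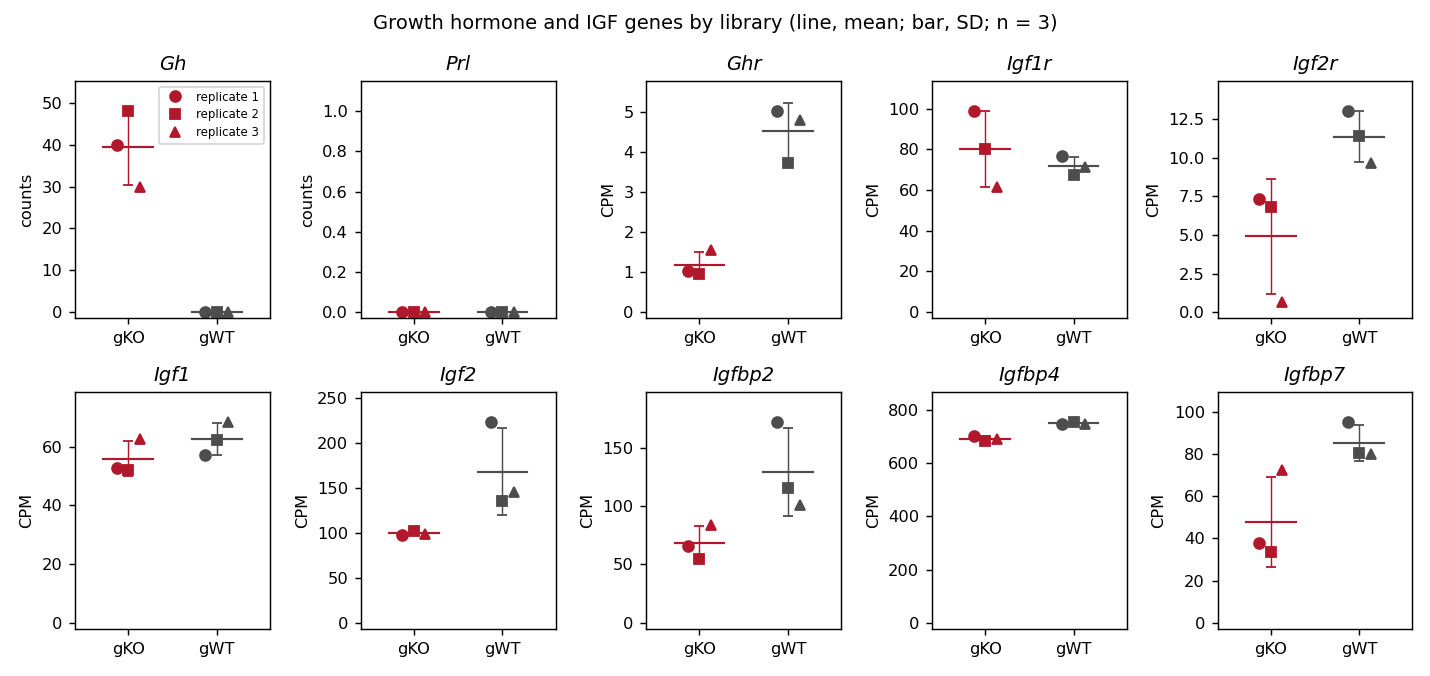
Each panel plots 1 gene by library, in raw counts for Gh and Prl and in TMM-scaled CPM for the others, with gKO left of gWT; marker shape gives the replicate, the horizontal line the mean and the bar the SD (n = 3). Gh has counts in the 3 gKO libraries and is at 0 in gWT, and Prl is at 0 throughout.

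Per kilobase of exon, the receptors were the least abundant of the members other than the hormones. Ghr, the growth hormone receptor (chromosome 15, 3317760 to 3583492, minus strand), had 18, 14 and 22 counts in the gKO libraries, against 85, 65 and 82 in the gWT libraries. That is 1.18 ± 0.325 CPM over the gKO libraries, against 4.51 ± 0.695 CPM over the gWT libraries (SD, n = 3 each), a log2 fold change of -1.93 (SE 0.46). The groups did not overlap, and each gKO library lay below each gWT library, the opposite of the ligand Gh. Ghr is in the authors' deposited table of genes lower in gKO, with a log2 fold change of -1.93 there (SE 0.51).

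Igf1r, the receptor for IGF1 and IGF2 (chromosome 7, 67952827 to 68233668, plus strand), had 98.7, 80.2 and 61.6 CPM in gKO against 76.5, 67.5 and 71.3 CPM in gWT. The gKO libraries spread on both sides of the gWT libraries, and the log2 fold change was 0.16 (SE 0.18), or -0.02 without gKO replicate 1 and 0.31 without gKO replicate 3. Igf2r, the receptor that clears IGF2 and sorts lysosomal enzymes (chromosome 17, 12682406 to 12769664, minus strand), had 128, 99 and 9 counts in the gKO libraries, against 221, 199 and 165 in the gWT libraries. Each gKO library lay below each gWT library, and gKO replicate 3 was far below the others. The log2 fold change of -1.20 (SE 0.67) was -0.69 without that library. Its antisense RNA Airn, which silences the paternal Igf2r allele in mouse tissues, had 0 counts in all 6 libraries.

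Of the ligands, Igf1 was close to level and Igf2 was lower in gKO. Igf1 (chromosome 10, 87858265 to 87937042, plus strand) had 52.7, 52.0 and 62.7 CPM in gKO against 57.3, 62.1 and 68.4 CPM in gWT, and the groups overlapped. Its log2 fold change was -0.17 (SE 0.15), between -0.27 without gKO replicate 3 and -0.10 without gWT replicate 3. Igf2 (chromosome 7, 142650766 to 142666816, minus strand) had 97.7, 102 and 99.0 CPM in gKO, values within a narrow range, against 223, 135 and 145 CPM in gWT. Each gKO library lay below each gWT library, and gWT replicate 1 was the highest of the 6. The log2 fold change of Igf2 was -0.75 (SE 0.20), or -0.49 without gWT replicate 1. Reads of Igf2 can come from the overlapping antisense gene Igf2os, which was counted apart at 0, 15 and 0 in gKO and 12, 14 and 4 in gWT; no strand setting is given in the sources used here.

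Per kilobase of exon, Igfbp4, Igfbp7 and Igfbp2 were the most abundant members. Igfbp4, which holds IGFs until the protease Pappa cleaves it (chromosome 11, 99041244 to 99054392, plus strand), had 701, 681 and 689 CPM in gKO and 745, 754 and 746 CPM in gWT. These groups did not overlap, although the log2 fold change was only -0.12 (SE 0.11). Igfbp2, a binding protein of fetal tissue, choroid plexus and astrocytes (chromosome 1, 72824503 to 72852474, plus strand), had 65.9, 54.9 and 83.8 CPM in gKO against 172, 115 and 101 CPM in gWT. The 3 gKO values lay below the 3 gWT values, with a log2 fold change of -0.93 (SE 0.24). Igfbp7, a vessel-associated protein that binds IGFs weakly (chromosome 5, 77349240 to 77408041, minus strand), had 37.7, 33.8 and 72.5 CPM in gKO and 95.2, 80.3 and 80.0 CPM in gWT. gKO replicate 3 came near the gWT range, and the log2 fold change of -0.83 (SE 0.28) was -1.26 without that library. Igfbp7 overlaps the end of Polr2b, and Igf1 overlaps Igf1os, so reads shared with these genes cannot be told apart either.

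Summed over Igfbp1 to Igfbp7, the binding proteins reached 892, 869.7 and 930.4 CPM in gKO against 1219, 1095 and 1071 CPM in gWT. Igfbp4 supplied 77.0% ± 2.57 of that sum in gKO and 66.6% ± 4.71 in gWT (SD, n = 3 each), and its share in each gKO library was above that in each gWT library. These are shares of CPM, in which a long gene weighs more than a short one. The exon length is 4416 bases for Igfbp4, 1847 for Igfbp2 and 1209 for Igfbp7. Without Igfbp4 the sum was 207 ± 30.1 CPM over the gKO libraries, against 379.8 ± 81.8 CPM over the gWT libraries (SD, n = 3 each).

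**Figure D2:**
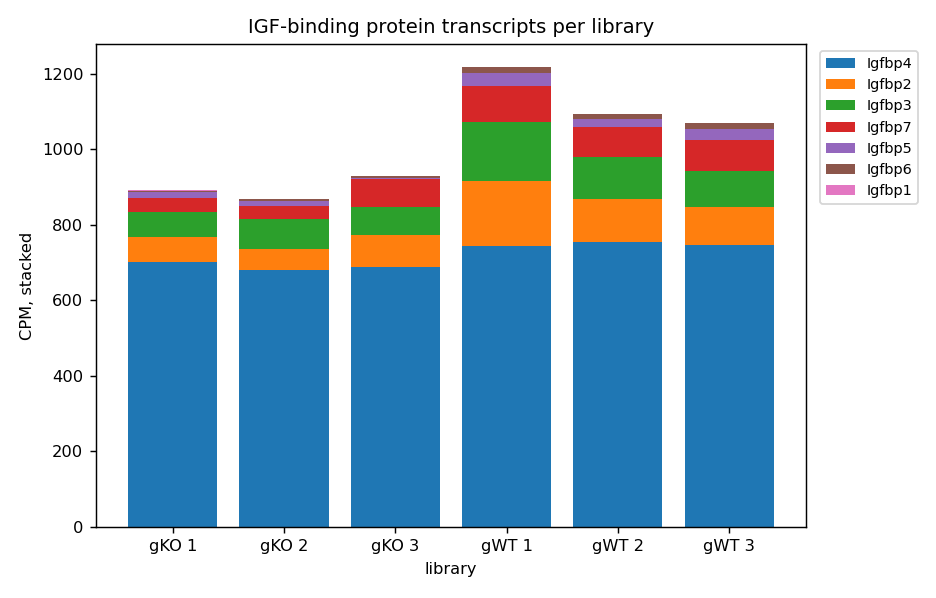
Stacked bars give the TMM-scaled CPM of Igfbp1 to Igfbp7 in each library, not scaled for gene length, gKO replicates left of gWT replicates. Igfbp4 forms the largest segment of every bar, and the summed height is 869.7 to 930.4 CPM in gKO and 1071 to 1219 CPM in gWT.

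Levels of different genes were compared per kilobase of annotated exon (CPM per kb, mean of the 6 libraries). Igfbp4 stood highest at 163 CPM per kb, above 98.1% of tested genes. Igfbp7 at 55.1 and Igfbp2 at 53.5 CPM per kb came next and did not differ from each other beyond their spread. Igf2 followed at 23.3, then Igf1 at 5.98 and Igf1r at 4.52 CPM per kb. The level of Igf1 overlapped that of Igf1r within the SD in gKO (5.63 ± 0.606 and 4.78 ± 1.10 CPM per kb, n = 3), but not in gWT (6.32 ± 0.561 and 4.27 ± 0.269 CPM per kb, n = 3). Gh at 1.49, Igf2r at 0.874 and Ghr at 0.314 CPM per kb were the lowest of the members with counts. The length is that of all annotated exons joined, so a gene with long exons that these cells do not use is understated on this scale.

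Across the genotypes, 7 of the 9 members that passed the filter had groups that did not overlap, Gh with gKO higher and 6 with gKO lower, where 21.3% of all 13403 tested genes had such groups. A negative fold change was found for 7 of the 9 and for 49.1% of all tested genes. The edgeR quasi-likelihood test at an adjusted p under 0.05 called 0 of the 9 members, against 0.627% of all genes (0.395% higher and 0.231% lower in gKO), with 5 members at an unadjusted p under 0.05, against 10.9% of all genes. These counts describe the values on which the genes were chosen, and Gh passed the filter only through the group where it is high, so nothing is read from them.

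The other genes of the pathway came from lists of growth hormone and prolactin signalling, IGF binding and release, and insulin and IGF receptor signalling. Further lists covered Igf2 imprinting and mRNA binding, and growth hormone release. These genes were tested, but the lists were chosen with earlier results of these data known. Their counts and medians are therefore a description and not independent support. Genes of the IGF binding and release list had a negative fold change in every tested case, and edgeR called none. Of the 11 genes of that list, all outside the members, 6 passed the filter. Of these, 0 were called by edgeR, where 0.627% of all genes were, and 5 had an unadjusted p under 0.05 (10.9% of all tested genes did). The median log2 fold change was -1.24, against 0.01 over all tested genes, and was -0.91 without gKO replicate 3. DESeq2 called Htra1, Igfbp3 and Igfbp6 lower, where it called 3.54% of all genes. Limma-voom with sample weights called Htra1 and Igfbp6 lower and 3.08% of all genes. EdgeR without the filter on low counts called Htra1 lower and 0.654% of all genes. Without gKO replicate 3, edgeR called 3 genes of the list lower, among them Htra1 and Igfbp6, and 7.81% of all genes.

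Htra1, a secreted protease that cleaves binding proteins, had 24.8 ± 5.10 CPM over the gKO libraries, against 58.9 ± 12.2 CPM over the gWT libraries (SD, n = 3 each). The log2 fold change was -1.25 (SE 0.22, edgeR adjusted p = 0.0534), and the authors' deposited table lists it as lower with -1.24 (SE 0.25). Igfbp6, which prefers IGF2, had 3.66, 3.57 and 7.28 CPM in gKO against 15.8, 13.3 and 16.9 CPM in gWT. Its log2 fold change was -1.66 (SE 0.33, edgeR adjusted p = 0.0985), and it too is in the authors' deposited table, at -1.66 (SE 0.38). Igfbp3, the main carrier of IGFs in blood, had 66.6, 79.6 and 75.9 CPM in gKO and 155, 111 and 96.9 CPM in gWT, with a log2 fold change of -0.71 (SE 0.19, edgeR adjusted p = 0.198). Igfals, the acid-labile subunit that completes the circulating IGF complex, had 0 counts in each gKO library and 10, 4 and 5 counts in gWT, too few to be tested.

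**Figure D3:**
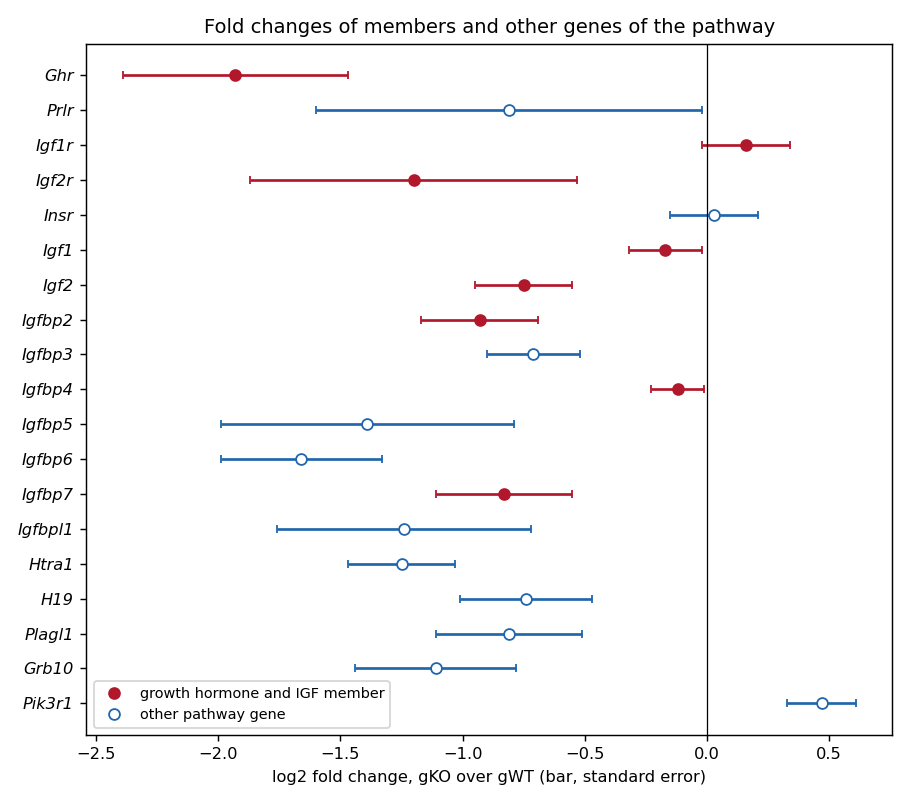
Points give the log2 fold change of gKO over gWT with its standard error as the bar, filled for members and open for other genes of the pathway, chosen to show receptors, ligands, binding proteins, imprinted genes and a signalling gene in that order from the top. The plotted binding proteins lie left of 0 with Igfbp4 nearest to it at -0.12, and Igf1r, Insr and Pik3r1 lie right of 0. Igfbp1 was not tested and is not plotted.

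The list of signalling genes downstream of the growth hormone receptor did not stand out from the background. Of its 16 tested genes, edgeR called 0, against 0.627% of all genes, and 1 had an unadjusted p under 0.05, against 10.9% of all genes. The median log2 fold change was -0.04. DESeq2 and voom each called 1 lower, where they called 3.54% and 3.08% of all genes. Socs3, a feedback inhibitor of cytokine receptors and the kinase Jak2, had a log2 fold change of 0.26 (SE 0.15, edgeR adjusted p = 0.578). Without gKO replicate 3, edgeR called Socs3 higher (0.37, adjusted p = 0.00456) and 1 gene of the list lower, against 7.81% of all genes called. The phosphatase gene Ptpn11 had a log2 fold change of -0.25 (SE 0.19, edgeR adjusted p = 0.720) over all libraries. The prolactin receptor Prlr had 20, 9 and 15 counts in the gKO libraries, against 48, 25 and 12 in the gWT libraries, and the groups overlapped.

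The counts for the insulin and IGF receptor pathway were near the same background. Of 30 tested genes, edgeR called 0, against 0.627% of all genes, and 4 had an unadjusted p under 0.05, against 10.9% of all genes. The median log2 fold change was -0.03 (0.13 without gKO replicate 3). DESeq2 called 0, against 3.54% of all genes, and voom called Pik3r1 higher, against 3.08% of all genes called. Pik3r1, the regulatory subunit of PI3-kinase, had a log2 fold change of 0.47 (SE 0.14, edgeR adjusted p = 0.273). Inpp5d, the most abundant gene of the list per kb and a phosphatase of blood cells, stood at 0.04 (SE 0.21, edgeR adjusted p = 0.961). Without gKO replicate 3, edgeR called 4 genes of the list higher, among them Inpp5d, Pik3cb and Pik3r1, and 7.81% of all genes. Grb10, an imprinted adaptor that restrains the insulin and IGF1 receptors, was at 7.86 ± 1.30 CPM over the gKO libraries, against 16.9 ± 6.24 CPM over the gWT libraries (SD, n = 3 each), with a log2 fold change of -1.11 (SE 0.33, edgeR adjusted p = 0.250).

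Among genes tied to Igf2 by imprinting or mRNA binding, 5 of 7 were tested. EdgeR, DESeq2 and voom each called 0, where they called 0.627%, 3.54% and 3.08% of all genes. In edgeR, 2 had an unadjusted p under 0.05, against 10.9% of all genes. H19, the maternally expressed RNA next to Igf2, had a log2 fold change of -0.74 (SE 0.27, edgeR adjusted p = 0.380), near the -0.75 of Igf2. Plagl1, an imprinted factor known to act on both of them in mouse, was at -0.81 (SE 0.30, edgeR adjusted p = 0.381). Igf2bp2, which binds Igf2 mRNA, was at 0.51 (SE 0.24, edgeR adjusted p = 0.497), and Ctcf, which binds the imprinting control region, at 0.12 (SE 0.12, edgeR adjusted p = 0.776). Of 12 genes for growth hormone release and insulin, 1 passed the filter: the somatostatin receptor gene Sstr4, with 11, 0 and 0 counts in the gKO libraries, against 15, 24 and 13 in the gWT libraries, which edgeR did not call (adjusted p = 0.651). Ghrh, its receptor Ghrhr, Ghsr and Ghrl had 0 counts in all 6 libraries.

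Summed markers of fibroblasts, endothelial cells and mural cells were lower in gKO libraries, as were Igf2, Igfbp2 and Igfbp7. The 10 meningeal fibroblast markers summed to 136 to 144 CPM in gKO and 293 to 397 CPM in gWT. The 10 endothelial markers summed to at most 502 CPM in gKO and at least 778 CPM in gWT, and the 10 mural markers to 104 to 164 CPM in gKO and 263 to 371 CPM in gWT. For each of these lists the groups did not overlap, no marker was at 0 in all libraries, and gWT replicate 1, the library highest in Igf2, Igfbp2 and Igfbp7, was highest. Within gKO the order differed between the lists. Replicate 3 had the highest Igfbp2 and Igfbp7 and the highest fibroblast sum, 144 CPM against 138 and 136 CPM. The same library had the lowest endothelial sum, 396 CPM, and the lowest mural sum. The choroid plexus sums overlapped between the groups, with 1248, 1003 and 2914 CPM in gKO and 2958, 1829.8 and 1753 CPM in gWT. Most of each sum was Ttr, which reached 2840.1 CPM in gKO replicate 3. All 8 choroid plexus markers had a negative fold change, against 49.1% of all genes, with a median log2 fold change of -0.80. By edgeR, 4 of the 10 fibroblast markers, 1 endothelial and 1 mural marker were called lower and no choroid plexus marker was, where 0.231% of all genes were called lower. Astrocyte markers, at 271 to 311 CPM in gKO and 372 to 409.5 CPM in gWT, did not overlap either. The border macrophage sum was higher in each gKO library, 1606 to 1725 CPM against 1524 to 1574 CPM over the gWT libraries, but its markers went both ways. Of these 8 markers, 3 had a negative fold change. Only Mrc1 (log2 fold change 0.24) lay higher in each gKO library, and only Siglec1 (-1.03) lay lower in each. Neuronal markers overlapped, at 14.4 to 18.6 CPM in gKO and 15.5 to 23.3 CPM in gWT. The part of these cells in the values of Igf2, Igfbp2 and Igfbp7 was not tested. Nor was it for the other genes lower in gKO, Ghr, Htra1, Igfbp3 and Igfbp6 among them. In bulk RNA fewer cells of a type and less RNA per cell cannot be told apart.

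**Figure D4:**
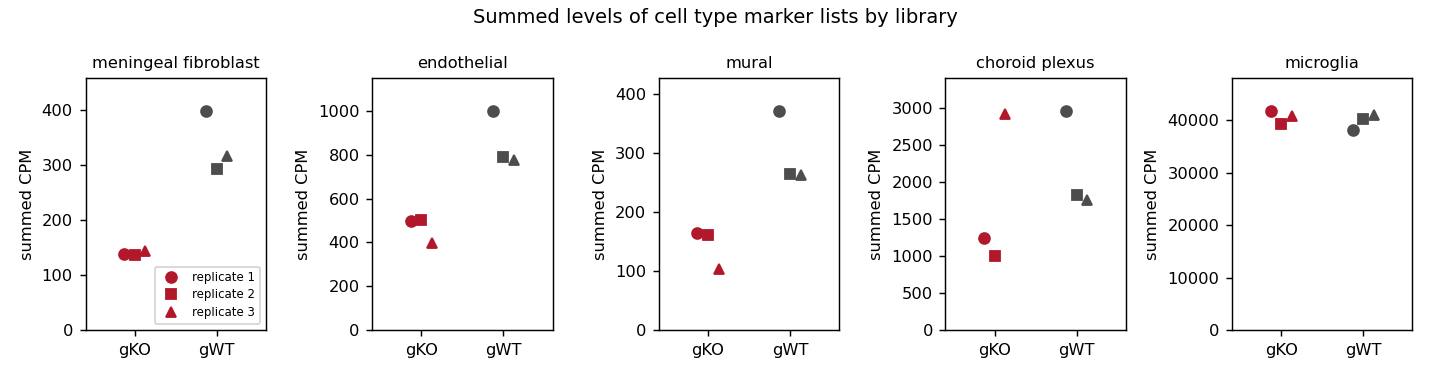
Each panel gives the summed TMM-scaled CPM of a list of cell type markers by library, gKO left of gWT, with marker shape for the replicate. Fibroblast, endothelial and mural sums are lower in all gKO libraries, and the microglial sum lies between 38117 and 41758 CPM in all 6.

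Genes whose levels ran most like those of a member over the 6 libraries were listed by Pearson's r of log2(CPM + 1), with no test. For Igf2, among 8853 genes with a mean of at least 10 CPM, the nearest included Egfl7 (r = 0.998), Ppap2b (0.998), Car12 (0.989) and Grk6 (0.983). Egfl7, a secreted protein of endothelial cells, had 25.1, 25.6 and 24.8 CPM in gKO against 48.1, 31.0 and 33.4 CPM in gWT, with the same single high library as Igf2. For Igf1 the 5 nearest genes were Mrpl49 (r = 0.978), Khdrbs3 (0.968), Nrarp (0.960), Trp53 (0.958) and H2afy (0.956). For Gh, among 15335 rows with at least 10 counts in sum, they were Ggta1 (r = 0.998), E2f3 (0.997), Cand1 (0.995), Csrnp1 (0.995) and Tlr7 (0.994), each well above 0 in gWT and so unlike Gh in kind. The 6 points of each profile share the split between genotypes.

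Promoters are shown for Igfbp2, Igfbp7 and Igfbp4, the most abundant members per kilobase, a choice made after the matches were seen. The windows run from 250 bases before to 50 after the annotated start (RefSeq, GRCm38.p6). Capitals mark GGGCGG, the GC box bound by Sp1-type factors, and TATAAA, the TATA box, each on either strand; no match overlapped another.
Igfbp2, chr1:72824230-72824529, plus strand: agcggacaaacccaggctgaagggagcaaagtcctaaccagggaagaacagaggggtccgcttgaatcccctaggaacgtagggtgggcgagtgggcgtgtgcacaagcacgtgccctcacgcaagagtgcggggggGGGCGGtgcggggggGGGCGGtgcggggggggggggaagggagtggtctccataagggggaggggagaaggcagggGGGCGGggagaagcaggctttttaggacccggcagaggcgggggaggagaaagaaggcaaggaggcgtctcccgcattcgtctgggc
Igfbp7, chr5:77407996-77408295, minus strand: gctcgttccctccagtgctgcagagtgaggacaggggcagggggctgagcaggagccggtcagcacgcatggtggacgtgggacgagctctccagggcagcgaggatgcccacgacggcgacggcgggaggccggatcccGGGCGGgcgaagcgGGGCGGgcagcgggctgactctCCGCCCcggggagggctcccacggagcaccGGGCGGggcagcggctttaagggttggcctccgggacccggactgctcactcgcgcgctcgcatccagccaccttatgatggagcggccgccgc
Igfbp4, chr11:99040994-99041293, plus strand: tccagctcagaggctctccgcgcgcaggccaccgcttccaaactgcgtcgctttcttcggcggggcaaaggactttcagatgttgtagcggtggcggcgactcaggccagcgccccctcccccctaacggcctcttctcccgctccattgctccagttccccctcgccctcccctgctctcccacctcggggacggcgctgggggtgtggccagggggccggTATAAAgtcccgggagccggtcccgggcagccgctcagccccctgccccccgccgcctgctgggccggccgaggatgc
The Igfbp2 window holds 3 GC boxes and the Igfbp7 window 4, with no TATA box letters in either, whereas the Igfbp4 window holds 1 TATA box and no GC box. Of the other members, the Igf1r window, at a log2 fold change of 0.16, holds 2 GC boxes, and the Igf2r window, at -1.20, holds 3. The Igf1 window, at -0.17, holds neither motif. For Ghr, at -1.93, the window at chr15:3581793-3582092 holds 1 TATA box and no GC box. Its window at chr15:3583303-3583602 holds 2 GC boxes and no TATA box. Whether the letters follow the fold changes was not tested. Of all 32851 windows in the table, 35.7% hold the GC box letters and 13.6% the TATA box letters. Among the 14 windows listed for 9 members, 7 hold the GC box letters and 3 the TATA box letters. The matches are letters in a window, and no factor's binding was measured. The other Igfbp2 window in the table, of a later start, holds no GC box. Gh has no entry in that table.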

How the data were processed

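RNA sequencing of 6 microglial libraries was deposited as a table of expected counts per gene symbol, not normalized, which the authors made; STAR 2.7.9a, RSEM and DESeq2, and the builds GRCm38 and mm10, appear in the submitters' processing notes without their roles. Annotation and strandedness: not given in the sources used here. Deposited by the authors as well were comparison tables of 75 higher and 201 lower genes, which per the file headers hold a signal (mean normalized count), log2 fold changes (gKO over gWT), scores (the SE and a test statistic) and p-values. Columns were mapped to samples by genotype and replicate number.

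Rounded expected counts entered edgeR 4.0.16 under R 4.3.3 (TMM, default low-count filter, robust quasi-likelihood test on genotype, Benjamini-Hochberg over 13403 genes, adjusted p under 0.05). The SE is the absolute log2 fold change over the square root of F. The code was tested on simulated data. Each choice was varied in turn: scaling (RLE, upper-quartile), tool (DESeq2 1.42.0; limma 3.58.1 voom with sample weights), other filters, a replicate block and leaving out each library. No replicates were merged, since counts of same-genotype libraries differed beyond sampling noise (chi-square over its degrees of freedom at least 6.49).

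The members and lists were chosen with earlier results of these data known. The rule for naming genes took all members, and from each pathway list the called genes, the 3 with the smallest p and the most abundant per kb. Genes of 0 counts, Igfals, Igfbp1, Prlr, Pitx1, Chga, Dlk1 and the neighbours of Gh were named after their values were seen. Some genes that the rule names are not reported here. Intervals and floors cover counting error only. Coordinates are 1-based on GRCm38 (GENCODE M21).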

Additional observations from a re-analysis of the deposited data

How the results depend on the processing

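RLE scaling, upper-quartile scaling and the stricter filter left each count of calls within 1.5 times its main value, among them the 53 genes higher and 31 lower in gKO over the whole table. DESeq2 called 218 higher and 257 lower, and voom with sample weights 261 higher and 152 lower. Without the low-count filter 61 were higher and 47 lower. With the replicate number as a block 11 were higher and 7 lower. Same-numbered libraries did not deviate together (correlations of 0.053, -0.048 and 0.015), which with 3 libraries a group cannot exclude a pairing. Leaving out 1 library gave 0 to 551 higher and 0 to 528 lower genes, the highest counts without gKO replicate 3 and the lowest without any 1 gWT library.

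Among the members, 0 were called higher or lower by the main test, against 0.627% of all genes. DESeq2 called 1 higher and 3 lower (3.54% of all genes). Voom called 1 higher and 2 lower (3.08% of all genes), and the fit without a filter 1 higher (0.654% of all genes). Leaving out 1 library gave 0 to 1 higher and 0 to 3 lower, the highest counts without gKO replicate 3, where 7.81% of all genes were called. Nothing is read from these calls, since the members were chosen on this contrast. In the growth hormone and prolactin signalling list, DESeq2 and voom called 1 lower each, and leaving out 1 library gave 0 to 1 in each direction. In the IGF binding and release list, DESeq2 called 3 lower, voom 2 and the fit without a filter 1, and leaving out 1 library gave 0 to 3. The median log2 fold change of this list, -1.24, ran from -1.33 without a filter to -0.91 without gKO replicate 3. In the insulin and IGF receptor list, voom called 1 higher, and leaving out 1 library gave 0 to 4 higher. Inpp5d, at 0.04 on the log2 scale, was at -0.08 without gKO replicate 1 and likewise without gKO replicate 2, and at 0.25 without gKO replicate 3. The median of that list, -0.03, was 0.10 by voom and 0.13 without gKO replicate 3. The cause of these shifts was not tested. The sign of each tested member was kept under every alternative, except Igf1r, at -0.02 without gKO replicate 1.

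Gh rests on 118 counts in gKO and Ghr on 14 to 22 counts in each gKO library, so depth limits both, and 3 libraries a group limit every comparison.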
